A study of Mus musculus with 6 samples.

Results

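This account describes 10 genes that encode transcription factors and markers of upper-layer neurons of the cerebral cortex, measured in cortex labelled Cux2 knock-out and in control cortex. The genes are Pou3f1, Pou3f2, Pou3f3, Lhx2, Rorb, Mef2c, Lmo4, Mdga1, Rasgrf2 and Limch1, chosen by name, and every non-control probe that the array assigns to them by name, older name or accession was taken. That gave 18 of 41174 probes, of which 17 were bright enough to be tested, and Limch1 was found under its older name 3732412D22Rik. RNA came from the whole dissected cerebral cortex of male mice, 3 labelled Cux2 knock-out with genotype Cux2-/- (samples 53, 48 and 54) and 3 controls (samples 15, 62 and 16), with 1 array per sample. The title of each control says wild type but its genotype entry is Cux2+/-, so whether these mice lack 1 copy of Cux2 is not settled, and they are called controls here. Age, strain and allele design are not stated in the labels.

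Neurons of the upper cortical layers are born late in development, migrate past earlier neurons and connect mainly within the cortex, across the corpus callosum or locally. Cux2, a homeodomain factor, is expressed in these neurons and is known for its part in their dendrites and synapses. The POU factors Pou3f2 and Pou3f3 act together in the production and migration of the same neurons, and the other genes described here mark all or some of them, several being expressed in other brain cells too.

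Levels are log2 of the processed spot signal relative to the 75th percentile of the same array, so that 0 is the level of a probe at that percentile and a step of 1 is a doubling of signal. Levels of different probes depend on the probe as well as on the transcript and are not set against each other. In RNA of bulk tissue, fewer cells of a type and less RNA per cell cannot be told apart. Between 58.5% and 68.1% of probes were well above background on the knock-out arrays, and between 62.7% and 72.7% on the control arrays. The brighter Cux2 probe stood at -0.03 ± 0.02 in knock-outs and 0.09 ± 0.16 in controls (SD, n = 3 each), a difference of -0.12 (limma, adjusted p = 0.838). The second Cux2 probe differed by 0.079 (limma, adjusted p = 0.947). The labels do not say which part of Cux2 was changed, so these probes check nothing about the genotypes. Markers of excitatory cortical neurons were measured on all 6 arrays (6 of 6 genes, Slc17a7, Camk2a, Neurod6, Neurod2, Tbr1 and Emx1). Knock-out array 54 stood apart by markers of the olfactory bulb, a list of 5 tested genes, of which 3 were well above background on all 6 arrays. The list averaged 2.66 above its own mean on knock-out array 54, against -0.85 and -0.82 on knock-out arrays 53 and 48 and -0.41 to -0.28 on the control arrays. The differences of Limch1, Lmo4, Rorb, Lhx2, Mef2c, Mdga1 and Rasgrf2 are given with and without knock-out array 54.

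Of the 17 tested probes of the upper-layer genes 0 passed an adjusted p of 0.05 in limma, against 33 of 25504 probes on the whole array (0.129%). At an unadjusted p under 0.05 there were 3, the brightest probe of Limch1 and the single probes of Pou3f2 and Rasgrf2, each of them lower in knock-outs, against 7.96% of all tested probes in either direction and 4.07% lower. With slide as a block 1 of the 3 remained at that level, the Limch1 probe. The 3 knock-out arrays lay below all 3 controls in 4 of the 17 probes, those of Limch1, Pou3f2, Mdga1 and Rasgrf2, and above them in 0, where 13.1% of all tested probes had groups without overlap and 6.65% had knock-outs below. By the brightest probe of each gene all 10 differences were below 0, with a median of -0.12 on the log2 scale, beside 8875 of 17121 genes below 0 and a median of -0.01 over all genes. Over all tested probes of the 10 genes 15 of 17 were below 0, beside 50.1% of all tested probes. With slide as a block 12 of the 17 probes were below 0, and 9 of the 10 genes by brightest probe. With normexp background correction as planned 9 of the 17 probes and 8 of the 10 genes were. By brightest probe, Rorb (0.038) and Mef2c (0.069) were above 0 within slide 1, and Lhx2 (0.22) and Lmo4 (0.17) within slide 2, the rest being below. The 10 differences are not independent of each other, since they come from the same 6 arrays. Limch1 was the 42nd of the 17121 genes by p and the 34th by size among those lower in knock-outs, and the next of the 10, Pou3f2, was the 1195th by p. Counted by genes, 4 of 10 had knock-outs below all controls, beside 7.24% of all 17121 genes.

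**Figure D1:**
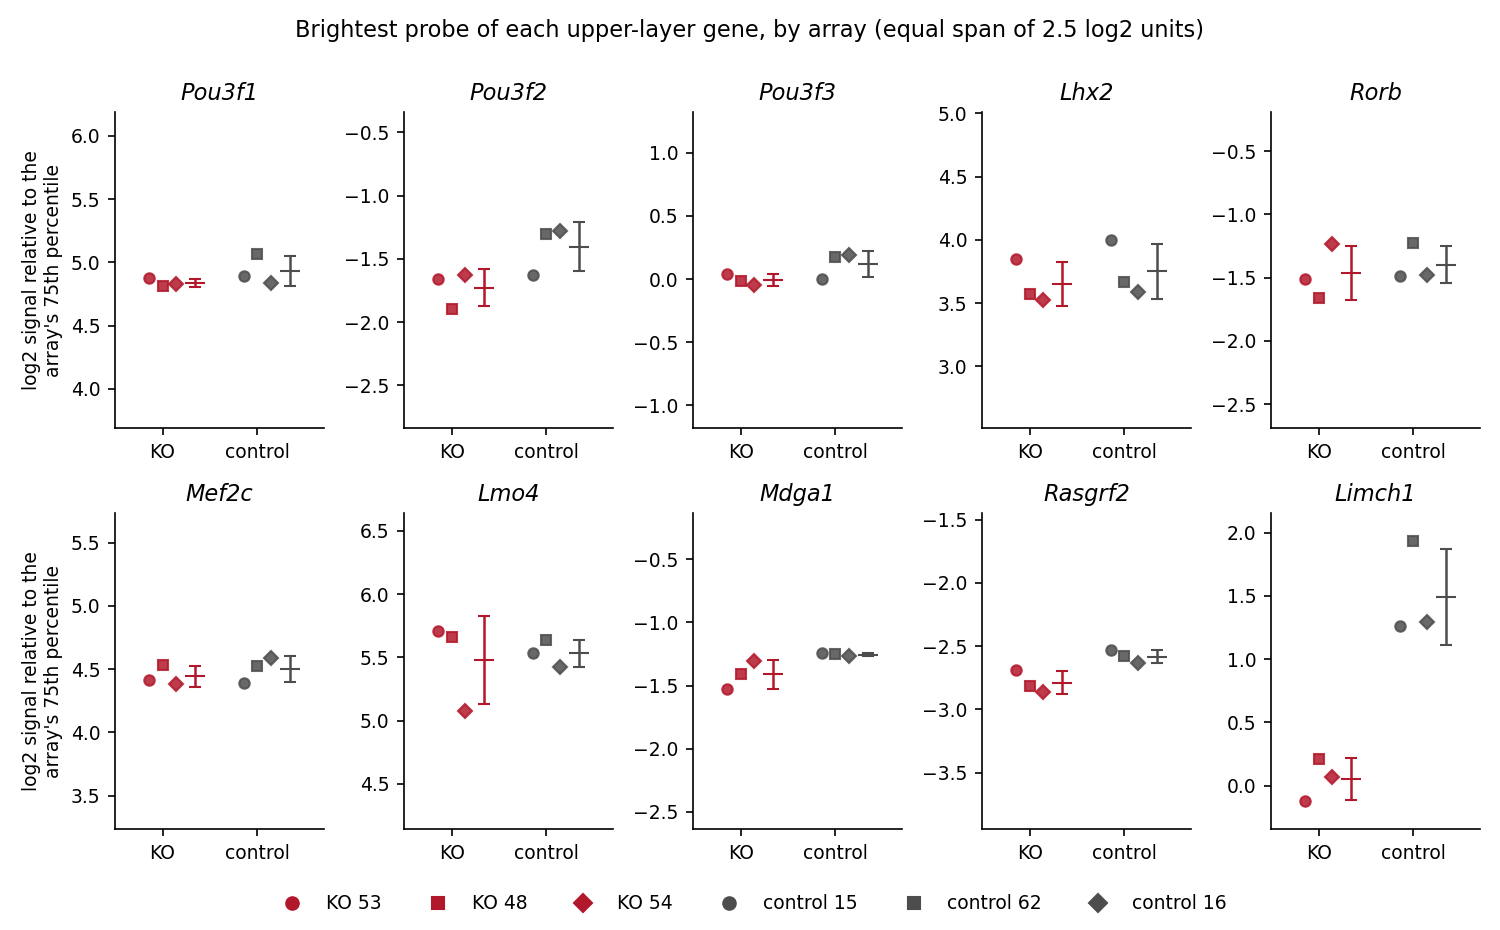
Level of the brightest probe of each of the 10 upper-layer genes on every array, in log2 units from the 75th percentile of that array, with knock-out arrays (red) left of control arrays (grey) and bars giving the mean and SD of 3 arrays. All panels span the same range; the knock-out arrays of Limch1 (0.21 at most) lie below its lowest control (1.26), whereas in Pou3f1, Pou3f3, Lhx2, Rorb, Mef2c and Lmo4 the groups overlap.

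Limch1 encodes an actin-associated protein with calponin homology and LIM domains, whose human form is known to bind non-muscle myosin, and it showed the largest difference of the 10 genes. Its brightest probe read -0.12, 0.21 and 0.07 on knock-out arrays 53, 48 and 54, against 1.26, 1.93 and 1.29 on control arrays 15, 62 and 16. The lowest control lay well above the highest knock-out, and control 62 was the highest array. Knock-outs differed from controls by -1.44 (95% interval -1.91 to -0.97; limma, adjusted p = 0.0947), which is 36.9% of the control signal with an interval of 26.5% to 51.2%. The probe therefore did not pass the threshold in the fit used here. It passed in 3 of 19 alternative settings, as given in the closing section, and its sign was the same in all of them. Within slide 1 the difference was -1.12 and within slide 2 it was -1.73, and with slide as a block it was -1.42 (limma, adjusted p = 0.229).

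The other Limch1 probes, which the array assigns to the same RefSeq accession NM_001001980, did not show this difference. The second probe read -1.89, -1.68 and -1.89 on knock-out arrays 53, 48 and 54, against -1.74, -1.55 and -1.71 on control arrays 15, 62 and 16, and the groups overlapped. Its difference was -0.15 with an interval of -0.38 to 0.09 (limma, adjusted p = 0.794), an interval that lies wholly outside that of the brightest probe. The third and dimmest probe read -3.96, -4.59 and -4.39 in knock-outs, against -4.68, -3.88 and -4.23 in controls, was well above background on 2 of the 3 knock-out arrays and all 3 controls, and differed by -0.05 with an interval of -0.63 to 0.52.

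The disagreement between Limch1 probes was measured within each array. The brightest probe exceeded the second by 1.77, 1.89 and 1.96 on knock-out arrays 53, 48 and 54, against 3.0, 3.48 and 3.0 on control arrays 15, 62 and 16. The groups did not overlap, the step being smaller by 1.29 in knock-outs (exact two-sided permutation test, p = 0.1, the smallest that 3 against 3 allows). It was 1 of 10 pairs of probes of the same gene compared in this way, in Pou3f3, Rorb, Lmo4 and Limch1, and adjusted over the 10 pairs its p was 0.5. Steps to the third Limch1 probe are not described, since that probe was near background. Averaged over its 3 probes Limch1 differed by -0.55 (limma over genes, adjusted p = 0.376).

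**Figure D2:**
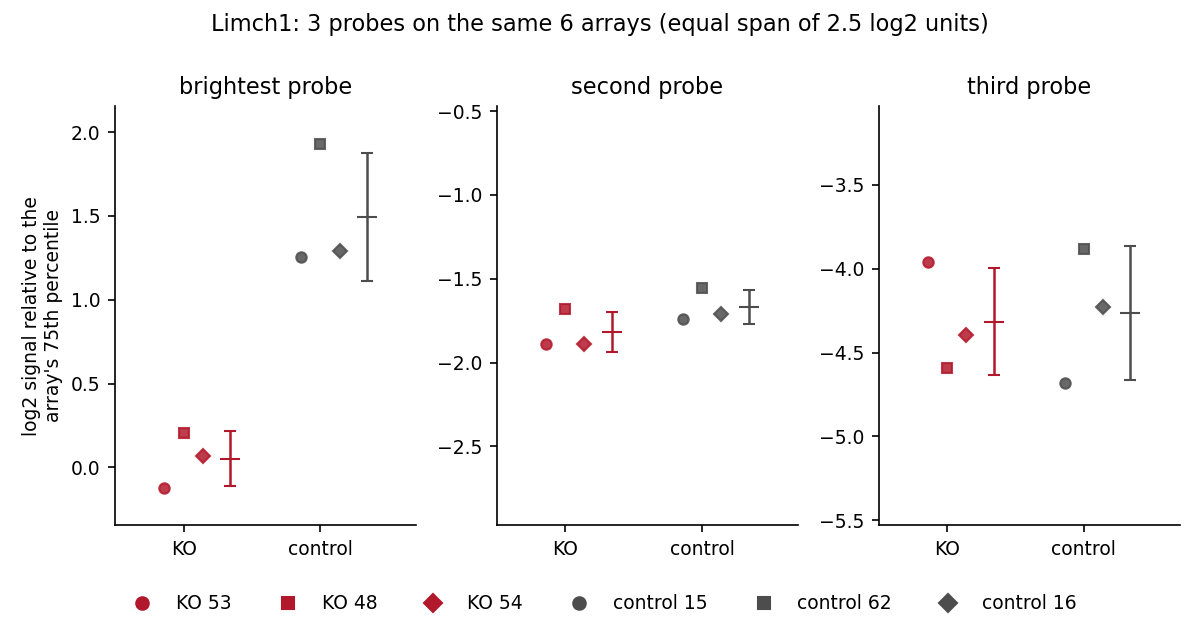
The 3 probes of Limch1 on the same 6 arrays, in log2 units from the 75th percentile of that array, with knock-out arrays (red) left of controls (grey), bars giving mean and SD of 3 arrays and panels of equal span. Only the brightest probe separates the groups (mean 0.05 in knock-outs and 1.49 in controls); the means of the second probe are -1.82 and -1.67, and those of the third -4.31 and -4.26, knock-out before control.

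RefSeq gives 3 start sites for Limch1 in the build GRCm38.p6, on the plus strand of chromosome 5. The 250 bases upstream of each are printed because Limch1 had the largest difference of the 10 genes and its probes disagreed. The array files do not say which transcript, and so which start, each probe reads. The windows are chr5:66745639-66745888, chr5:66857219-66857468 and chr5:66968178-66968427, written 5′ to 3′, and are in lower case throughout because the motifs searched, described after them, were not found there.
Limch1 start 1: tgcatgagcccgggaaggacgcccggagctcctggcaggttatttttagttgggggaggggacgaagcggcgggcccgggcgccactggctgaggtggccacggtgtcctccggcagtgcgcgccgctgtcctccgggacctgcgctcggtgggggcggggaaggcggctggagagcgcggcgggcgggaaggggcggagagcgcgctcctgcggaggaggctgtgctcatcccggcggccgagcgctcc
Limch1 start 2: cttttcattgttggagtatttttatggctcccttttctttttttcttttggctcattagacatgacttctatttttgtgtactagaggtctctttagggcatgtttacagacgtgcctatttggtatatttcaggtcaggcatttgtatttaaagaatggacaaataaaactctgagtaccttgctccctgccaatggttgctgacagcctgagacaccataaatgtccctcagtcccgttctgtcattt
Limch1 start 3: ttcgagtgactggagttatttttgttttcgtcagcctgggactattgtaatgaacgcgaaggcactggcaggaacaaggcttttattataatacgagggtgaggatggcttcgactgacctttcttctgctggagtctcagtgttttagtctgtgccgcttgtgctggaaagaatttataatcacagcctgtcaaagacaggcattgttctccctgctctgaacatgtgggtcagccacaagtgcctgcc
The first is rich in G and C (74.4%), the second is not (39.2%) and the third lies between (47.2%), beside a median of 52.4% over the promoters of the table.

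The promoters of the members were searched on both strands for ATCGAT and ATCAAT, forms of the site known for Cux proteins, for ATGCAAAT, the octamer of POU factors, and for TAATTA, a homeodomain core. Sequences were found in the table for 9 of the 10 genes, with 17 start sites. ATCGAT and ATGCAAAT occurred in 0 of the 17, beside 0.728% and 1.60% of 32817 promoters of the same length. ATCAAT occurred in 1 of 17 (6.73% of all promoters) and TAATTA in 1 of 17 (4.85%), both in the same window upstream of the second Mef2c start, chr13:83523406-83523655 on the plus strand, which is printed for that reason with both matches in capitals, the first of them ATCAAT read on the minus strand.
Mef2c start 2: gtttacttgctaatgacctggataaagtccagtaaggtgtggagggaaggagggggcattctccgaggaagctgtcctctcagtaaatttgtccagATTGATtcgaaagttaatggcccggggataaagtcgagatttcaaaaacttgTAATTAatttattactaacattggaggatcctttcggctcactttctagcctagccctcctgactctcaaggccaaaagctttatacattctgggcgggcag
These are matches of letters in a window, and binding was not measured.

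The genes that lie next to Limch1 on chromosome 5 were read to see whether its difference extended to them. Cux2 lies on the same chromosome, and its distance from Limch1 was not measured here. The nearest tested genes were Nsun7, Apbb2 and Uchl1 on the side of lower coordinates, Uchl1 closest, and Tmem33, Slc30a9 and Bend4 on the other, Tmem33 closest. Their differences ran from -0.18 for Bend4 to 0.30 for Nsun7, with limma adjusted p from 0.719 to 0.976. Apbb2, an adaptor that binds the amyloid precursor protein, was the 1 neighbour whose knock-out arrays (2.92, 3.03 and 3.06) lay below its controls (3.14, 3.17 and 3.13), at -0.14. Over all genes 7.24% had knock-outs below all controls.

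The POU factors bind DNA through a paired POU-specific domain and homeodomain. Pou3f2, also called Brn-2, read -1.66, -1.90 and -1.63 on knock-out arrays 53, 48 and 54, against -1.63, -1.30 and -1.28 on control arrays 15, 62 and 16. The groups did not overlap, but control 15 and knock-out 54 almost met. The difference was -0.33 with an interval of -0.63 to -0.02 (limma, adjusted p = 0.606), which is 79.8% of control signal (64.5% to 98.7%). It was -0.14 within slide 1 and -0.37 within slide 2, and -0.031 with normexp background correction as planned.

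Pou3f3, also called Brn-1, which shares much of the role of Pou3f2 in cortical neurons, had a pair of tested probes. The brighter read 0.04, -0.01 and -0.05 on knock-out arrays 53, 48 and 54, against -0.0006, 0.17 and 0.19 on control arrays 15, 62 and 16, a difference of -0.13 (limma, adjusted p = 0.798), and the groups overlapped through control 15. The dimmer read -1.20, -1.16 and -1.16 in knock-outs, against -1.32, -0.83 and -1.01 in controls, a difference of -0.12 (limma, adjusted p = 0.894). The 3 knock-out arrays of the dimmer probe lay within an SD of 0.02, while its controls had an SD of 0.25. Within slide 1 the brighter and the dimmer probe had opposite signs, at -0.030 and 0.16, and without control 62 they stood at -0.10 and -0.0051.

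Pou3f1, also called Oct-6 or SCIP, known from myelinating Schwann cells and from cortical projection neurons, had 1 probe, with overlapping groups. It read 4.87, 4.81 and 4.83 on knock-out arrays 53, 48 and 54, against 4.89, 5.06 and 4.84 on control arrays 15, 62 and 16. The difference was -0.09 (limma, adjusted p = 0.862), or 93.7% of control signal with an interval of 81.1% to 108%. As single arrays were left out the difference ran from -0.14 to -0.027.

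**Figure D3:**
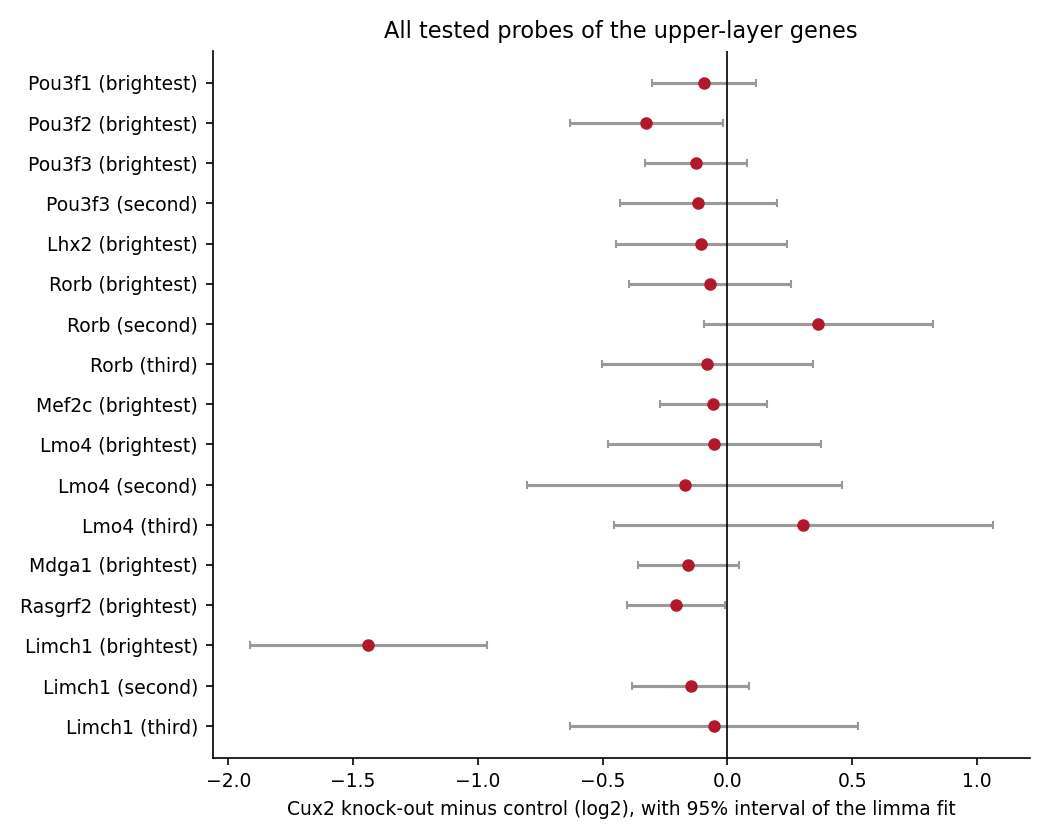
Difference between knock-out and control (log2) of each of the 17 tested probes of the upper-layer genes, with the 95% interval of the limma fit over 3 arrays per group. The interval of 3 probes, the brightest of Limch1 and those of Pou3f2 and Rasgrf2, does not hold 0 in this fit (with slide as a block only that of Limch1), and the differences of the 16 other than the brightest Limch1 probe run from -0.33 to 0.36.

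Lhx2 is a LIM-homeodomain factor that acts in cortical fate and stays on in upper-layer neurons, and in glia. It read 3.85, 3.57 and 3.52 on knock-out arrays 53, 48 and 54, against 4.0, 3.66 and 3.59 on control arrays 15, 62 and 16. The groups overlapped, and the difference was -0.10 with an interval of -0.45 to 0.24 (limma, adjusted p = 0.921). It was -0.45 within slide 1 and 0.22 within slide 2, so the slides gave opposite signs, and it was 0.020 without control 15 and -0.041 without knock-out 54.

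Rorb is an orphan nuclear receptor that marks the cortical layer receiving thalamic input. Its brightest probe read -1.51, -1.66 and -1.24 on knock-out arrays 53, 48 and 54, against -1.48, -1.22 and -1.48 on control arrays 15, 62 and 16, a difference of -0.07 (limma, adjusted p = 0.946). The second probe, made to the retinal cDNA clone AK044421, read -2.50, -2.16 and -2.56 in knock-outs, against -2.39, -2.93 and -3.0 in controls. It differed by 0.36 with an interval of -0.095 to 0.82 (limma, adjusted p = 0.717), and its groups overlapped through control 15. As single arrays were left out the value ran from 0.24 without knock-out 48 to 0.56 without control 15, with 0.44 without knock-out 54, and with slide as a block it was 0.25. The third probe differed by -0.08 (limma, adjusted p = 0.953), and the brightest by -0.19 without knock-out 54. The step from the brightest to the second probe averaged 0.94 ± 0.42 in knock-outs and 1.37 ± 0.42 in controls (SD, n = 3 each; exact permutation p = 0.3).

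Mef2c is a MADS-box factor that acts in neuronal differentiation and limits excitatory synapses, and it is expressed in microglia and vessel cells as well. It read 4.42, 4.54 and 4.38 on knock-out arrays 53, 48 and 54, against 4.39, 4.52 and 4.59 on control arrays 15, 62 and 16, and the groups overlapped. The difference was -0.06 with an interval of -0.27 to 0.16 (limma, adjusted p = 0.932), or 96.2% of control signal (82.8% to 112%). It was -0.11 without control 15, -0.012 without control 16 and -0.024 without knock-out 54. Microglial markers stood between -0.24 and -0.19 on the knock-out arrays and between 0.13 and 0.36 on the controls, as mean deviation of 14 genes, and their part in the Mef2c value was not tested. A second probe named Mef2c, made to a cDNA clone that the array describes as unclassifiable, was not well above background on any of the 6 arrays and was not tested.

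Lmo4 is a LIM-only protein that joins transcription complexes through Ldb1 and is patterned across cortical layers and areas, with high expression in striatum and other forebrain parts. Its brightest probe read 5.70, 5.66 and 5.08 on knock-out arrays 53, 48 and 54, against 5.54, 5.64 and 5.42 on control arrays 15, 62 and 16. Knock-out 54 was the lowest array and the other knock-outs were above every control. The difference was -0.05 with an interval of -0.48 to 0.37 (limma, adjusted p = 0.973), and 0.15 without knock-out 54.

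The second Lmo4 probe showed the same array apart, at 2.85, 2.82 and 1.91 in knock-outs, against 2.48, 2.81 and 2.80 in controls. It differed by -0.17 with all arrays and by 0.14 without knock-out 54, the array that also carried the olfactory bulb markers. The third probe, made to the testis cDNA clone AK033097, did not have knock-out 54 low. It read 1.35, 0.60 and 1.47 in knock-outs, against 0.82, 0.35 and 1.34 in controls, a difference of 0.30 (limma, adjusted p = 0.886). As single arrays were left out that value ran from 0.058 without control 62 to 0.57 without knock-out 48, with 0.56 without control 16 and 0.13 without knock-out 54. Whether tissue of the olfactory bulb contributed to these values was not tested.

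Mdga1 is a membrane-anchored protein of the immunoglobulin superfamily that marks upper-layer neurons, acts in their migration and binds neuroligins. Its probe read -1.53, -1.41 and -1.30 on knock-out arrays 53, 48 and 54, against -1.25, -1.25 and -1.27 on control arrays 15, 62 and 16. The groups did not overlap, and the controls were close together (SD 0.01) while the knock-outs spread more (SD 0.11). The difference was -0.16 with an interval of -0.36 to 0.05 (limma, adjusted p = 0.719). It was -0.21 without knock-out 54.

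Rasgrf2 is a calcium-regulated exchange factor for Ras and Rac and a marker of the upper layers. It read -2.69, -2.81 and -2.86 on knock-out arrays 53, 48 and 54, against -2.53, -2.58 and -2.64 on control arrays 15, 62 and 16, without overlap. The difference was -0.21 with an interval of -0.40 to -0.01 (limma, adjusted p = 0.609), or 86.6% of control signal (75.6% to 99.3%). It was -0.17 without knock-out 54, -0.31 within slide 1 and -0.08 within slide 2, and 0.17 with normexp background correction as planned. Of 11 other tested genes of Ras exchange and signalling 0 passed, and 1 had an unadjusted p under 0.05, beside 8.27% of all genes. It was Rasal1, which speeds the hydrolysis of GTP by Ras, at -0.33 (limma, adjusted p = 0.496).

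Averaged over the brightest probes of the 10 genes, the arrays stood at -0.10, -0.14 and -0.16 for knock-outs 53, 48 and 54 and at 0.08, 0.23 and 0.09 for controls 15, 62 and 16, in log2 units around each gene's own mean over the 6 arrays. Without Limch1 the 9 other genes stood at -0.01, -0.09 and -0.10 in knock-outs, against 0.04, 0.12 and 0.04 in controls. The groups did not overlap in either average, nor did they in those of some other lists. Deep-layer markers stood between -0.11 and -0.018 in knock-outs and between 0.016 and 0.076 in controls, and genes of Ras exchange and signalling between -0.065 and -0.011 in knock-outs and between 0.0036 and 0.047 in controls. As single arrays were left out, 9 or 10 of the 10 genes had a difference below 0.

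Other upper-layer markers were divided in direction. Of 22 tested, 10 were below 0 and 12 above, with a median of 0.12 on the log2 scale. By limma 0 of them passed, and 5 had an unadjusted p under 0.05, 3 higher and 2 lower, beside 8.27% of all genes. The potassium channel Kcnh5 read -0.87, -0.79 and -0.76 in knock-outs, against -1.17, -1.21 and -1.38 in controls, a difference of 0.44 (limma, adjusted p = 0.227). The adhesion molecule Nectin3 stood at 0.33, while Dtx4, a Deltex ubiquitin ligase, stood at -0.39 and the peptide precursor Cartpt at -0.29 (limma, adjusted p = 0.442, 0.289 and 0.579 in that order). The groups of these 4 genes did not overlap.

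Deep-layer markers, the nearest comparison within the cortex, were below 0 in 16 of 19 tested genes with a median of -0.07. By limma 0 of the 19 passed, and 5 had an unadjusted p under 0.05, 3 lower and 2 higher, again beside 8.27% of all genes. Fezf2, a factor of subcerebral projection neurons, stood at -0.52 and Nr4a2, a nuclear receptor of subplate and deep neurons, at -0.31, while Sox5, a factor of deep-layer projection neurons, stood at 0.22 and the neurexophilin Nxph4 at 0.21 (limma, adjusted p from 0.497 to 0.599 for the 4). No difference between them and other layer markers was tested.

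**Figure D4:**
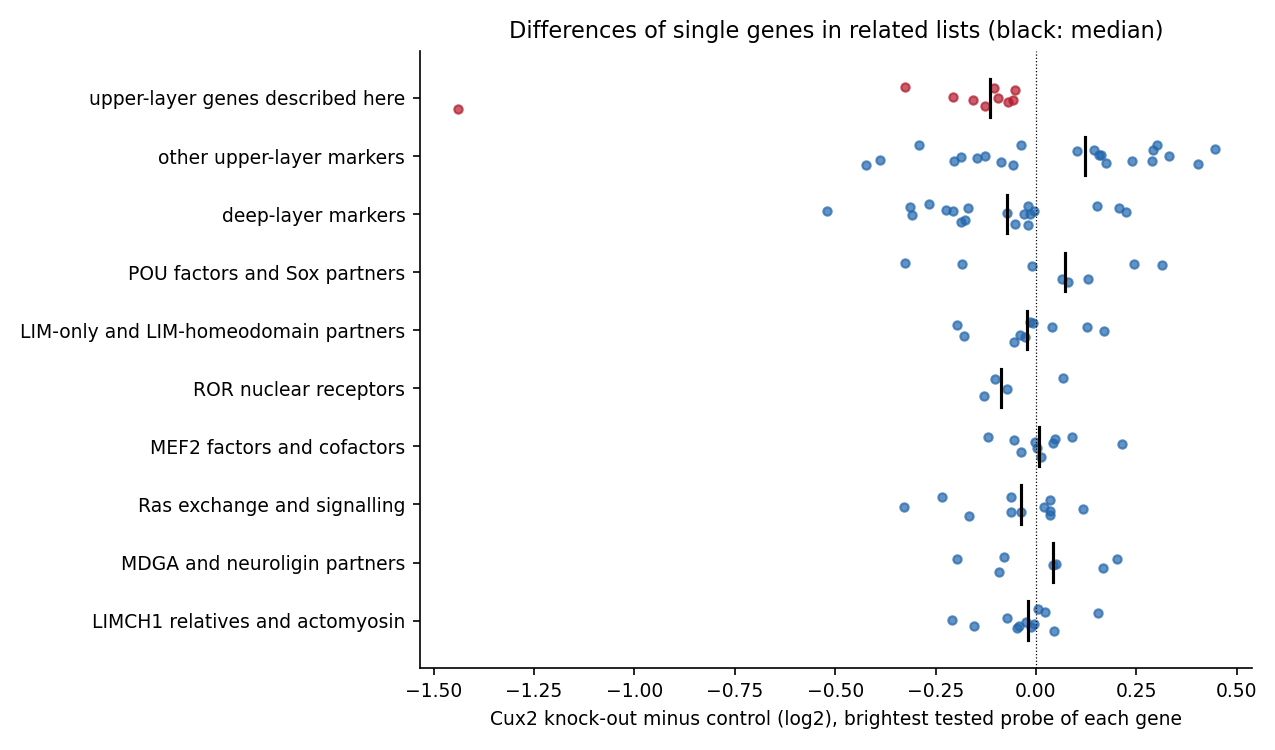
Difference between knock-out and control (log2) for the brightest tested probe of each gene, in rows for the 10 upper-layer genes (red) and for related lists (blue), with the median of each row in black. The medians are -0.12 for the 10 genes, 0.12 for other upper-layer markers and -0.07 for deep-layer markers, and Limch1 at -1.44 is the point farthest from 0.

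Partners and relatives of the 10 genes were read from lists of the same pathways, and 0 genes passed in limma in any of them. Of 8 tested POU factors and Sox partners 3 were below 0, with a median of 0.07. At an unadjusted p under 0.05 there was 1, Sox11, a factor of young neurons, at -0.33, beside 8.27% of all genes. Of 10 LIM-only and LIM-homeodomain partners 7 were below 0 with a median of -0.02, and Ldb1, the adaptor through which Lmo4 and Lhx2 act, stood at -0.20 (limma, adjusted p = 0.816). Of 4 genes of the ROR group and its Rev-erb counterparts 3 were below 0, and Rora, a relative of Rorb, stood at 0.07 (limma, adjusted p = 0.913).

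Of 10 MEF2 factors and cofactors 4 were below 0 with a median of 0.01, and Hdac5, a deacetylase that represses MEF2 factors, stood at -0.12 (limma, adjusted p = 0.788). Of 7 MDGA and neuroligin partners 3 were below 0 with a median of 0.04, and Mdga2, the close relative of Mdga1, stood at 0.17 (limma, adjusted p = 0.847). Of 12 relatives of Limch1 and actomyosin genes 8 were below 0 with a median of -0.02, and Myl9, a myosin light chain, stood at -0.21 (limma, adjusted p = 0.712). Apart from Sox11, 0 genes of these 6 lists had an unadjusted p under 0.05.

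Some markers of other cells and neighbouring tissue that the dissection can hold also moved with the groups, and others did not. The 12 tested striatal markers averaged -0.36, -0.11 and -0.23 on knock-out arrays 53, 48 and 54, against 0.48, 0.45 and -0.23 on control arrays 15, 62 and 16, all 12 of them below 0 in the difference. Control 16 lay among the knock-outs for striatum. Without control 16 the Limch1 difference was -1.54, with only controls high for striatum left, and without knock-out 54 it was -1.45. The part of striatal or olfactory bulb tissue in the Limch1 value was not tested. All 14 microglial markers and 9 of 10 astrocyte markers were below 0 in the difference, and their list means separated the groups on every array.

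Markers of excitatory neurons stood between -0.02 and 0.04 on the knock-out arrays and between -0.06 and 0.01 on the control arrays, with 2 of 6 below 0 in the difference and a median of 0.04. Markers of vessel cells stood between -0.01 and 0.11 on the knock-out arrays and between -0.14 and 0.11 on the control arrays. For oligodendrocytes, interneurons, hippocampus, thalamus, and meninges with choroid plexus the list means of the groups overlapped. The part of these cell types in the values of the 10 genes was not tested.

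**Figure D5:**
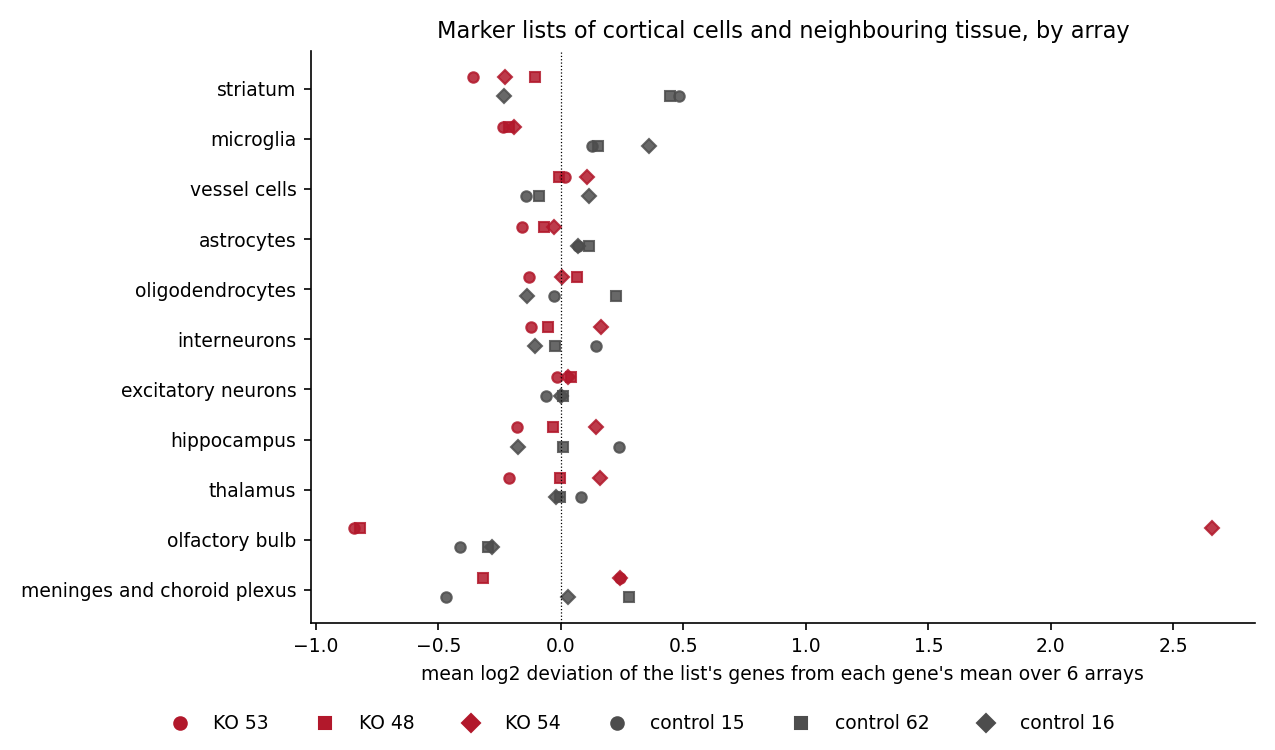
Mean log2 deviation of each marker list from the genes' own means over 6 arrays, by array, with knock-out arrays (red) above control arrays (grey) in every row. Knock-out 54 stands at 2.66 for olfactory bulb markers, the knock-outs lie below the controls for microglia and astrocytes, and control 16 lies with the knock-outs for striatum.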

How the data were processed

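Cy3-labelled cRNA of 6 samples of mouse cerebral cortex was hybridised to 1-colour Agilent arrays, per the labels. Per the file headers, Agilent Feature Extraction in version 9.1.3.1 read the spots, and the deposited processed signal is an intensity, background-subtracted and detrended within each array. A table of log2 values from the authors, deposited with the arrays, has the same distribution in every column and serves as an alternative; how it was centred is not stated. The main values are log2 processed signal, scaled to the 75th percentile of its array, without control and outlier spots and with spots of a probe averaged. Tested probes had to be well above background in all 3 samples of either group, a filter that uses the group labels. Tests used limma 3.58.1 (lmFit, eBayes; R 4.3.3), and p-values were adjusted (Benjamini-Hochberg) across the 25504 tested probes. The procedure was tested on simulated data with independent noise for each probe, at the spread that limma's eBayes estimated for it, and with 50 probes changed at each fold. It recovered 24% of changes of 1.5-fold, 74% of 2-fold and 100% of 4-fold, with 7 false calls. The simulated arrays had no slide or array effects, so recovery on the real arrays can be lower. Small differences can therefore be present without passing the threshold. Nothing says that samples are separate animals, so p-values measure the spread between samples, and the number of arrays limits the precision. Slide 1 held knock-outs 48 and 54 and control 15, and slide 2 held knock-out 53 and controls 62 and 16. Knock-outs and controls have no sample number in common.

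Probes were named through a RefSeq gene table of GRCm38.p6 (22951 by accession, 6659 by symbol, 3109 by synonym), 8455 kept the array's name, and the brightest tested probe stood for each gene in counts over genes. Promoter sequences are RefSeq's for the same build. All 10 genes and, from each related list, up to 4 genes of lowest p, with the 3 nearest genes on each side of Limch1, could be named. The genes, lists and tests were chosen with earlier results of these data known. Alternatives changed the scaling, background correction, filter, variance model, array weights, slide, source of values, probe summary and the arrays used.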

Additional observations from a re-analysis of the deposited data

How the results depend on the processing

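The 10 genes by their brightest probes gave 190 values with a test under alternative settings, of which 170 kept direction and side of the threshold, 17 changed sign and 3 passed it. The 3 are Limch1 without scaling (-1.27, limma adjusted p = 0.0244), with the trend and robust variance model (-1.44, adjusted p = 0.0476) and with normexp after bright local backgrounds were set to the array median (-1.38, adjusted p = 0.0437), a setting chosen after seeing the data, and each made the count of member probes past the threshold 1. Over its 19 alternatives the adjusted p of Limch1 ran from 0.0244 to 0.988, and its value from -1.22 without control 62 to -1.56 without control 15 as single arrays were left out; the count of member probes was 0 in each. Without scaling the median of all tested probes moved to 0.17, and relative to it all 10 genes stayed below 0. The unshifted values that changed sign there were 0.0809 for Pou3f1, 0.0488 for Pou3f3, 0.0704 for Lhx2, 0.104 for Rorb, 0.118 for Mef2c, 0.123 for Lmo4 and 0.0170 for Mdga1.

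Normexp as planned gave 0.0592 for Rorb, 0.168 for Rasgrf2 and 0 probes past the threshold in limma (149 at an unadjusted p under 0.05). Its first percentile of signal ran from -4.35 to -1.29 between arrays, against -4.47 to -4.08 once 53 spots with a local background over 2 times the array's median were set to that median. Lmo4 was 0.0031 with slide as a block, 0.0061 with array weights and 0.0263 as the mean of its probes, and Rorb was 0.0708 as the mean of its probes. As single arrays were left out, Lhx2 ran from -0.204 without knock-out 53 to 0.0200 without control 15, Rorb from -0.186 (knock-out 54 left out) to 0.0248 (knock-out 48), with 0.0157 for control 62, and Lmo4 from -0.164 (knock-out 53) to 0.149 (knock-out 54). Of the 3 member probes at an unadjusted p under 0.05, 1 remained with slide as a block (Limch1). Mef2c ran from -0.112 to -0.0115 and Pou3f1 from -0.140 to -0.0271 as single arrays were left out. Over all probes the count of 33 (13 higher, 20 lower) became 15 with slide as a block, 3 with a filter of at least 1 array and 2 with none, and ran from 2 without control 16 to 60 without knock-out 53 (7 without control 15, 12 without knock-out 54). Median scaling gave 49, 13 higher and 36 lower. The cause of these changes was not tested. The third Limch1 probe and the second Mef2c probe are limited by signal near background. No paired analysis was possible because the groups share no replicate number.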
